A study of Mus musculus with 4 samples.

Results

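The mitosis genes described here are 49 genes of the late cell cycle: the cyclins and kinases that start mitosis, the chromosomal passenger complex, the spindle checkpoint, the kinetochore, the mitotic kinesins, the anaphase machinery and the cytokinesis proteins, with the proliferation marker Mki67 and the topoisomerase Top2a. They were chosen by name and function, not by a measured value. A named probe was present for 48 of them, and 43 were bright enough to be tested, of 13205 named genes tested in all. The samples were mammary glands of 13-week-old female mice carrying Δ16HER2, a splice form of the human receptor HER2 that drives mammary tumours in mice, taken before neoplasia per the labels. Both KO samples came from mice that lack stathmin (STM KO) and carry the transgene. Both WT samples came from mice with intact stathmin, and these controls carry the same transgene, so no gland without Δ16HER2 entered the comparison. The labels do not name the promoter of the transgene, the strain, or the number of animals behind a sample. Stathmin, the product of Stmn1, holds tubulin dimers and so shortens microtubules, the polymer from which the mitotic spindle is built, and the comparison asks how gene expression in the gland differs when it is missing.

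Mitosis genes are transcribed in a wave late in the cell cycle, so the RNA of most of them is abundant in dividing cells and scarce in resting ones. In resting cells the DREAM complex, a repressor that contains the MuvB core, holds many of their promoters silent. In dividing cells the MuvB core joins B-Myb and FOXM1 and the same promoters are activated. DREAM and MuvB reach these promoters largely through a short element near the start site called the cell cycle genes homology region, or CHR, and the factor NF-Y binds CCAAT boxes upstream of it. In a gland the level of such an RNA depends on how many cells divide and on how much RNA each carries. Fewer dividing cells and less RNA per dividing cell cannot be told apart on these arrays.

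The promoters of several members show these elements, and 8 of them are printed. They set members much higher on KO 1 and WT 1 than on KO 2 and WT 2 beside members that were not. Each window runs from 250 bases before to 50 bases after the annotated start on the gene's strand, 5′ to 3′, from RefSeq on GRCm38.p6. Capitals mark the CHR (TTTGAA or TTCGAA, either strand) and the CCAAT box (CCAAT, either strand). The windows lie at chr9:70421505-70421804 (minus strand) for Ccnb2, chr7:122159185-122159484 (plus) for Plk1, chr4:118437294-118437593 (minus) for Cdc20, chr2:164769679-164769978 (plus) for Ube2c, chr4:117178723-117179022 (minus) for Kif2c, chr9:22389157-22389456 (minus) for Anln, chr11:40733388-40733687 (minus) for Hmmr and chr2:127831810-127832109 (minus) for Bub1. On their brightest probes the first 4 genes were at least 2-fold higher on KO 1 than on KO 2 and on WT 1 than on WT 2. The other 4 were so in neither group, but a second Bub1 probe was 2.98-fold and 5.43-fold higher on KO 1 and WT 1. A second Hmmr probe was 1.37-fold and 3.08-fold higher.
Ccnb2: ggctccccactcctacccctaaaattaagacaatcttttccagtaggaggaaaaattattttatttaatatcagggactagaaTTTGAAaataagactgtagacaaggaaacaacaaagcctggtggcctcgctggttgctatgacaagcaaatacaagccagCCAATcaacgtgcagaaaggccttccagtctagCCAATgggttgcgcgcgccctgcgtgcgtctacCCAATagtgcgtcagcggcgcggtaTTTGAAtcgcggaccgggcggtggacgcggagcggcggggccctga
Plk1: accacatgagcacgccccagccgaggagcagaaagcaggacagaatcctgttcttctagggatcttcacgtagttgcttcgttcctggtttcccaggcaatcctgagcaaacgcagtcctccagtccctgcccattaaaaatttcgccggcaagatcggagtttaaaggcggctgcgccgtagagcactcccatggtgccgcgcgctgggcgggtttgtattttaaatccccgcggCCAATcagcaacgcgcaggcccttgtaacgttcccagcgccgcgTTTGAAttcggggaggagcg
Cdc20: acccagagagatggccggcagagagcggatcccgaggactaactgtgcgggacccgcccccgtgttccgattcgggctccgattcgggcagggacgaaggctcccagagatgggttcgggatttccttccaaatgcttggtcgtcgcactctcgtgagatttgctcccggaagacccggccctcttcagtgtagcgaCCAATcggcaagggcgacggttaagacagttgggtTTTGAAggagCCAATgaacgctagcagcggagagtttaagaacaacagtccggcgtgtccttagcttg
Ube2c: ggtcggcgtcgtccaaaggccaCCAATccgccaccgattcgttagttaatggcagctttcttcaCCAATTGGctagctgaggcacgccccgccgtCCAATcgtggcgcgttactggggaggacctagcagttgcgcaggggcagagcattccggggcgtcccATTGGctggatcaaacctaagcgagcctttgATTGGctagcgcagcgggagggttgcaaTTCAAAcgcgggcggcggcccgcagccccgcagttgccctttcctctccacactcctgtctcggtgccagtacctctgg
Kif2c: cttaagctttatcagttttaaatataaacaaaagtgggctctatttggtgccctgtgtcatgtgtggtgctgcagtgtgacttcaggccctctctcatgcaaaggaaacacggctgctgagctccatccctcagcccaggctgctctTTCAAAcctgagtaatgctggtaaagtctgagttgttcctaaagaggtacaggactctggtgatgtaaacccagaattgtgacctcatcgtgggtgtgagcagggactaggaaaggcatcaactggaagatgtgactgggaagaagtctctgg
Anln: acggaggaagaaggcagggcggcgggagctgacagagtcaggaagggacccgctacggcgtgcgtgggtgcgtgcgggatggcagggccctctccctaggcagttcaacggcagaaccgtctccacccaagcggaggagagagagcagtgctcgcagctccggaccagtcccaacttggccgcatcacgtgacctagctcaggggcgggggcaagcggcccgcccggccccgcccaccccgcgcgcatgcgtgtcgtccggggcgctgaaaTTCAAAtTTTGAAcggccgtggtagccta
Hmmr: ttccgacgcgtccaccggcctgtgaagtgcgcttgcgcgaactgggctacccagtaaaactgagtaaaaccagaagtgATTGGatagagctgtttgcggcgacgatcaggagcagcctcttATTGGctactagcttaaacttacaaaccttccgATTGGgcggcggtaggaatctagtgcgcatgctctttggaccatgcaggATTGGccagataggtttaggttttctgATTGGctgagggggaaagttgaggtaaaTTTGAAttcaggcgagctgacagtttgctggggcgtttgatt
Bub1: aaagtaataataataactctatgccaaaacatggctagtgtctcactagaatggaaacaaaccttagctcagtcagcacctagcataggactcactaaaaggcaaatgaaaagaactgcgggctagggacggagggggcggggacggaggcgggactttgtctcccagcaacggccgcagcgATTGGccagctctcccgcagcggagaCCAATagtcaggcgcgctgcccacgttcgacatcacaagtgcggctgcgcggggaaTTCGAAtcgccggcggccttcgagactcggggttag

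In the Ccnb2 window 3 CCAAT boxes began at positions -87, -54 and -21, counted from the first base of the gene as 1, and a CHR at position 5, with another CHR far upstream at -167. Plk1 had a CCAAT box at -14 and a CHR at 31. Cdc20 had a CHR at -18 between CCAAT boxes at -53 and -8. Ube2c held 6 CCAAT matches, of which the pair beginning at -186 and -183 overlap on opposite strands, and a CHR at -29. Kif2c had a CHR match at -103 and no CCAAT box. Anln had CHR matches at positions 22 and 29 on opposite strands and no CCAAT box. Hmmr held a CHR at 9 and 5 CCAAT boxes from -172 to -20, and Bub1 a CHR at 15 with CCAAT boxes at -68 and -42. Both elements were therefore present in Ccnb2, Plk1, Cdc20 and Ube2c and also in Hmmr and Bub1, while Kif2c and Anln had CHR matches only.

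A promoter window was given for 41 of the 49 members, as 45 windows, and 8 members had none (Foxm1, Pbk, Kif20a, Tpx2, Aurkb, Ccna2, Cdc25c and Incenp). A CHR lay in 32 of the 45 windows (71.11%), against 14.12% of the 13412 windows of named genes tested, members included. It lay within 50 bases of the start in 30 windows (66.67%), against 3.676% of the tested genes' windows. A CCAAT box was found in 34 windows (75.56%) against 37.24%, and both elements in 27 of the 45 windows, against 5.629%. The E2F site searched (TTTGGCG or TTTCGCG, either strand), an element of genes expressed at the start of S phase, was found in 5 windows (11.11%) against 3.847%. In 44 windows of DNA replication and S phase genes an E2F site (34.09%) was more frequent than a CHR (18.18%), and a CCAAT box was found in 61.36%. In 51 windows of other mitosis genes the shares were 54.9% for the CHR, 70.59% for the CCAAT box and 7.843% for the E2F site. A match is a run of letters and shows no binding.

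**Figure D1:**
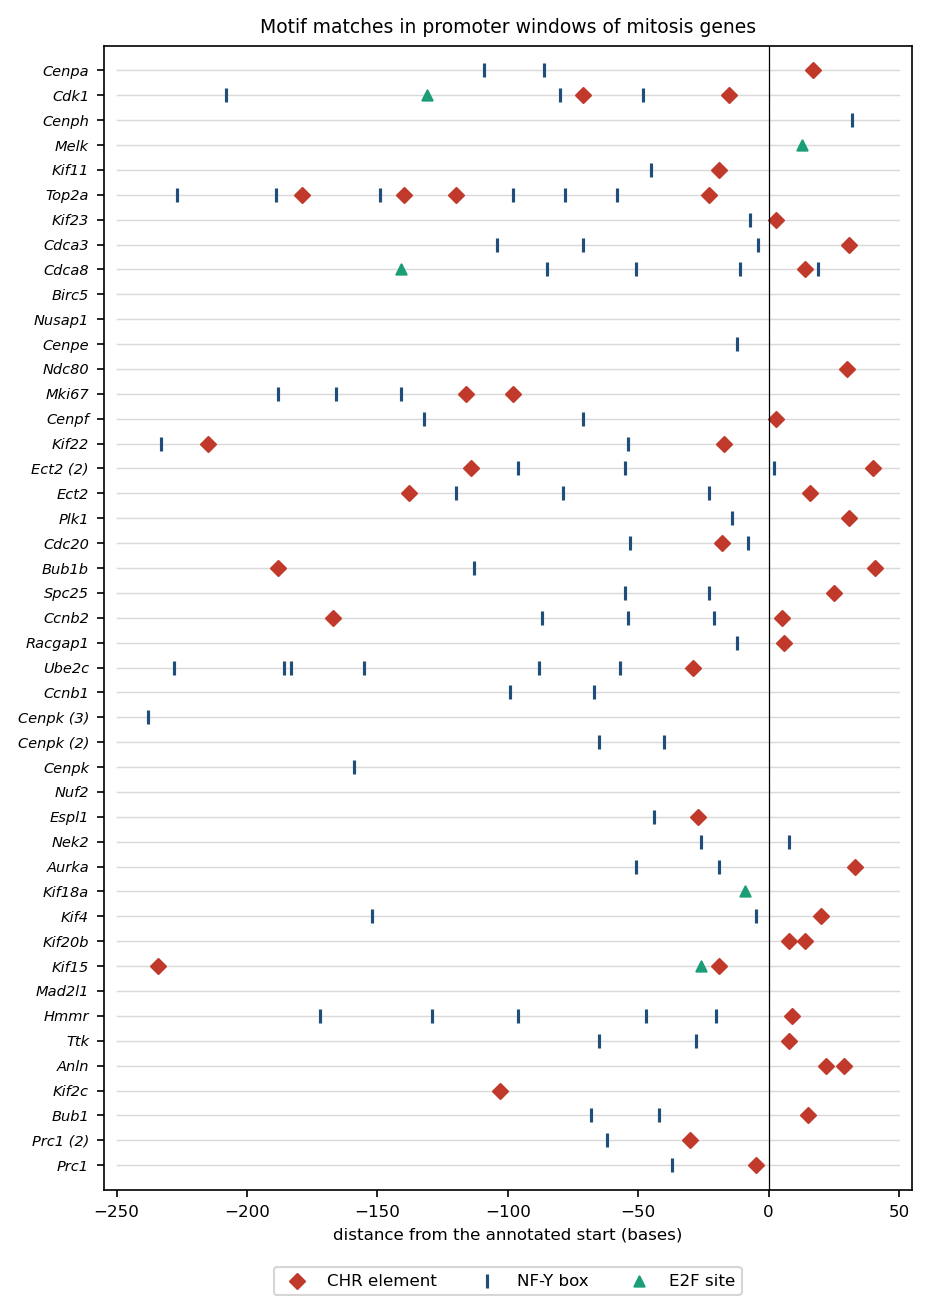
Matches to the CHR (diamonds), the CCAAT box that NF-Y binds (bars) and the E2F site (triangles) in the 45 promoter windows of 41 mitosis genes, by distance from the annotated start in bases. Genes run downwards from the largest to the smallest difference between WT 1 and WT 2, with Prc1, which had no named probe, last, and 30 of the windows have a CHR within 50 bases of the start.

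Expression was read on 4 one-colour Agilent arrays, 1 per sample, named KO 1, KO 2, WT 1 and WT 2 by the numbers in the labels. The share of spots well above background was 60.4% on KO 1 and 66.2% on KO 2, against 63.3% on WT 1 and 54.7% on WT 2, no spot was saturated, and arrays correlated at 0.963 to 0.974 across tested probes. All 4 arrays lay on 1 slide and were read in 1 scan. Each array had its own place on the slide, so the place cannot be told apart from the sample. A level below is the log2 processed signal minus the array's 75th percentile (291.6 on KO 1 and 160.2 on KO 2, against 191.4 on WT 1 and 144.5 on WT 2). Levels of different genes come from different probes and are not set against each other. A difference of 1 in log2 is 2-fold.

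The targeted gene was read by a pair of Stmn1 probes, which disagreed. The brighter probe stood at 4.56 on KO 1 and 3.34 on KO 2, against 5.59 on WT 1 and 3.59 on WT 2, so the groups overlapped. The dimmer probe had processed signals of 5.57 and 4.84 on KO 1 and KO 2, both not well above background, against 87.6 on WT 1 and 13.8 on WT 2, of which only WT 1 was well above background. Where either probe lies relative to the deleted sequence is not given in the sources used here, so the brighter probe does not check the genotype labels. Its log2 fold change, KO minus WT, was -0.64 ± 0.76 (SE, n = 2 per group, limma adjusted p = 0.938). It was also higher on KO 1 than on KO 2 and on WT 1 than on WT 2, by 1.22 and 2.0 in log2.

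No mitosis gene passed the test between KO and WT glands. The fold changes of the 43 tested members had a median of -0.11 and ran from -0.87 (Kif2c) to 0.76 (Bub1), with 15 above 0 and 28 below. The median over all named genes tested was -0.01. Scaling on the arrays' medians turned the members' median to 0.06, and leaving out 1 array moved it to -0.65 (KO 1), 0.56 (KO 2), 0.88 (WT 1) or -1.06 (WT 2), so it has no stable direction. None of the 43 passed limma's test at an adjusted p of 0.05 (adjusted p from 0.934 to 0.999), and none had an unadjusted p under 0.05, the smallest being 0.0547. Among all 13205 named genes 0% passed the adjusted threshold in either direction and 3.54% had an unadjusted p under 0.05. No member was higher on both KO arrays than on both WT arrays, where 17.7% of named genes were. Kif2c, Hmmr and Cdc25c were lower on both KO arrays than on both WT arrays, 3 of 43, where 17.8% of named genes were. Under median scaling, quantile normalization and the authors' table only Kif2c was lower without overlap, and Bub1 was higher without overlap. Of named genes 7.73% to 16.8% were lower and 20% to 20.2% higher in these settings. These results limit large changes poorly: every one of the 43 intervals at 95% held 0, and their half-width in log2 ran from 0.66 to 3.28 with a median of 2.14.

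**Figure D2:**
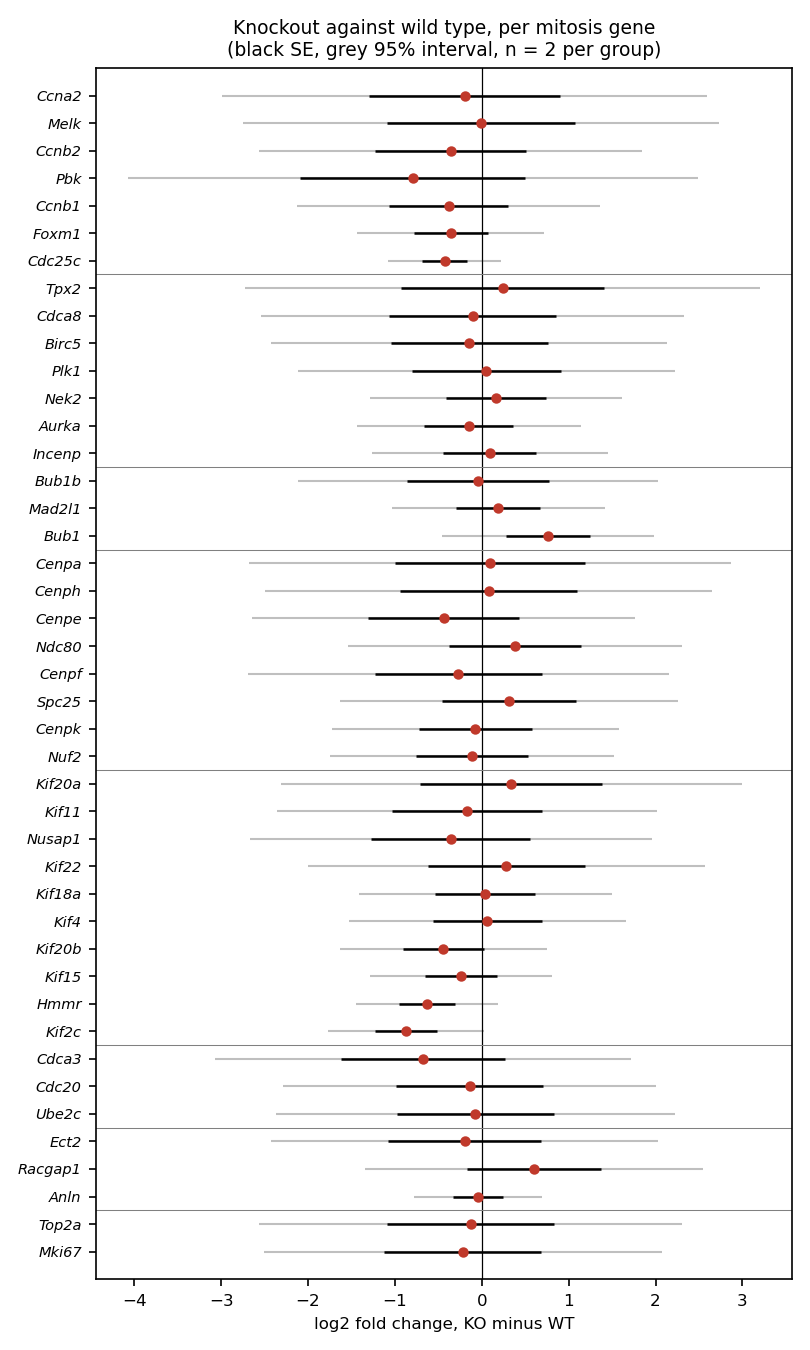
Log2 fold change, KO minus WT, of the 43 tested mitosis genes in the order of their roles, with the standard error (black) and the 95% interval (grey) from limma with n = 2 arrays per group. All 43 grey bars cross 0, and 39 of the points lie within 1 standard error of it.

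The members differed far more within each genotype. Of the 43 tested members, 37 were at least 2-fold higher on WT 1 than on WT 2, where 3.85% of named genes were. At least 2-fold higher on KO 1 than on KO 2 were 24 members, where 2.91% of named genes were. All 24 were among the 37, so both differences reached 2-fold for 24 of the 24 and 24 of the 37, where 0.894% of all named genes did so in both groups. The median member was higher by 1.24 in log2 on KO 1 than on KO 2 and by 2.17 on WT 1 than on WT 2, where the medians over named genes were -0.02 and -0.01. At 4-fold or more the count was 5 between the KO arrays (Ccna2, Ube2c, Tpx2, Pbk and Melk), where 0.462% of named genes reached it, and 25 between the WT arrays, where 0.924% did. The groups hold 1 pair of arrays each, so these differences carry no test. Another background correction, normexp, was run with an offset of 50 added to every signal, and an added constant narrows log2 differences of dim probes. With normexp the median differences were 0.36 between the KO arrays and 0.86 between the WT arrays. The part of the offset in this was not tested. The counts at 2-fold were then 15 of 43 between the KO arrays, where 2.2% of named genes reached it, and 19 between the WT arrays, where 1.2% did.

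The order of the 4 arrays was the same for most members. The highest array was WT 1 for 39 of 43, the exceptions being Bub1, Kif4, Mad2l1 and Racgap1, and the lowest was WT 2 for 32 and KO 2 for 8. In 35 members WT 1 came first, KO 1 next and both arrays numbered 2 last, an order found in 8.13% of named genes. The mean level of the 43 was -0.78 on KO 1 and -1.86 on KO 2, against -0.27 on WT 1 and -2.17 on WT 2, so the KO arrays lay between the WT arrays. The difference between arrays of a group was larger in WT than in KO for 38 members. No share over all named genes was worked out for this count or for those of the highest and lowest array. These counts therefore only describe the members. The median within-group SD of a member was 1.32 in log2 against 0.26 for all named genes, and 1.81% of named genes had a larger one. A larger SD widens the test: the median standard error of a member's fold change was 0.85 against 0.28.

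The filter passed 11 of the 43 (among them Top2a, Tpx2, Cenpa, Ndc80 and Anln) through both KO arrays while only WT 1 of the WT arrays was well above background. For these the WT 2 reading is near the floor of the measurement. A WT fold written "at least" below is an approximate lower bound. It sets WT 1 against the lowest signal of any probe well above background on WT 2, which was 10.5. Top2a, Kif18a, Tpx2, Nek2 and Anln had WT 2 readings above that signal, so their folds were kept as measured and are no bounds. With the 11 set in this way, 35 members stayed at least 2-fold higher on WT 1, 22 at least 4-fold, and the median difference was 2.02. Over the other 32, well above background on all 4 arrays, the median difference was 1.40 between KO 1 and KO 2 and 2.12 between WT 1 and WT 2. At least 2-fold higher were 21 and 27 of the 32, where 2.65% and 2.7% of named genes under that filter were. Of the 12 members with a mean level above 0, 10 were at least 2-fold higher on both KO 1 and WT 1 than on their group's other array. Their differences ran from 0.11 to 2.12 between the KO arrays and from 1.33 to 2.77 between the WT arrays.

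**Figure D3:**
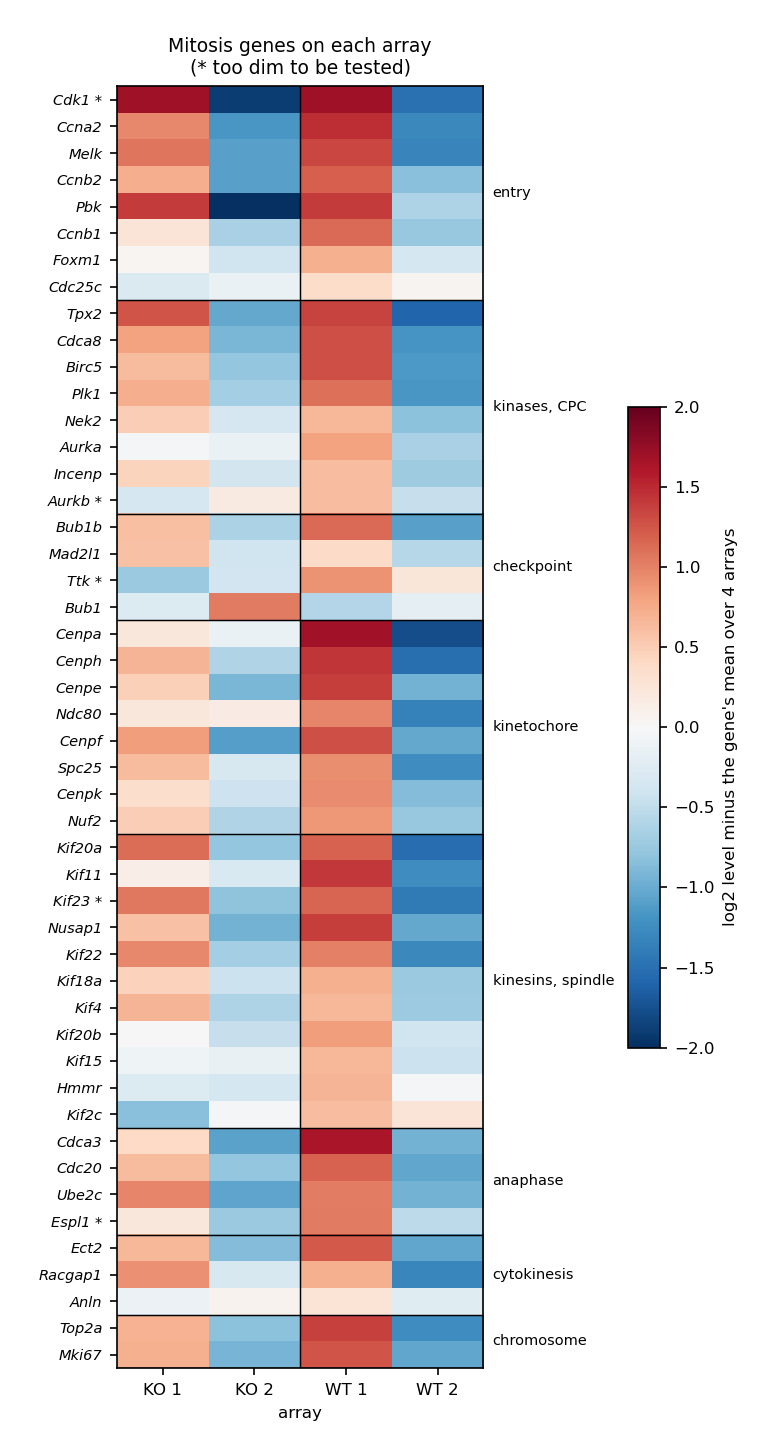
Level of each of the 48 mitosis genes with a named probe on KO 1, KO 2, WT 1 and WT 2, as log2 minus the gene's mean over the 4 arrays (red above it, blue below), grouped by role, with an asterisk where the probe was too dim to be tested. WT 1 is the reddest column in 39 of the 43 tested genes, KO 1 is mostly red, KO 2 and WT 2 are mostly blue, and Bub1, Kif2c, Cdc25c and Anln depart from this.

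Among the genes of entry into mitosis, none of the 7 tested passed the adjusted threshold between genotypes. Here and in the roles below this matches all named genes, of which 0% passed, and it does not show that levels were unchanged. The fold changes ran from -0.79 to -0.01. Ccna2, cyclin A2, which activates the cell cycle kinases in S phase and early mitosis, stood at 1.40 on KO 1 and -0.72 on KO 2, against 1.92 on WT 1 and -0.85 on WT 2. Ccnb2, a B-type cyclin of mitosis, stood at 2.01 on KO 1 and 0.20 on KO 2, against 2.48 on WT 1 and 0.45 on WT 2. Pbk, a mitotic kinase also called TOPK, read -0.16 on KO 1 and -3.75 on KO 2, against -0.15 on WT 1 and -2.17 on WT 2. All 3 were high on the arrays numbered 1 in both genotypes, so the groups overlapped. Their fold changes were -0.20 ± 1.1 for Ccna2, -0.36 ± 0.87 for Ccnb2 and -0.79 ± 1.29 for Pbk (SE, n = 2 per group, limma adjusted p = 0.985, 0.969 and 0.951). Pbk had the widest gap of any tested member between the KO arrays, 12.1-fold, against 4.05-fold between the WT arrays. Ccnb1, the other mitotic B-type cyclin, was 1.88-fold and 3.71-fold higher on the arrays numbered 1 in KO and WT, and Melk, a kinase of dividing cells, 4.43-fold and 6.29-fold. Foxm1, the transcription factor that activates many of these genes, was 1.34-fold and 2.09-fold higher. Cdc25c, the phosphatase that activates the cyclin B kinase, was nearly level, at -3.76 and -3.60 on KO 1 and KO 2 against -3.10 and -3.41 on WT 1 and WT 2 (fold change -0.43 ± 0.26, adjusted p = 0.934).

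Cdk1, the catalytic partner of the B-type cyclins, was well above background on KO 1 and WT 1 only and failed the filter. Its level was -1.94 on KO 1 and -5.52 on KO 2, against -1.94 on WT 1 and -5.11 on WT 2. It was thus dim on both arrays where most other members were low.

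Among the mitotic kinases and the chromosomal passenger complex, which corrects faulty attachments of chromosomes to the spindle, 0 of 7 tested members passed. The fold changes ran from -0.15 to 0.24. Birc5, survivin, a subunit of that complex, stood at 3.05 on KO 1 and 1.65 on KO 2, against 3.71 on WT 1 and 1.28 on WT 2. Aurka, the Aurora A kinase of the spindle poles, stood at 1.65 on KO 1 and 1.54 on KO 2, against 2.47 on WT 1 and 1.02 on WT 2. Tpx2, which activates Aurora A on microtubules, read -0.86 on KO 1 and -3.14 on KO 2, against -0.77 on WT 1 and -3.70 on WT 2. Aurka was nearly level between the KO arrays while Birc5 and Tpx2 were not, and in all 3 the KO levels lay between those of the WT arrays. Fold changes were -0.14 ± 0.90 for Birc5, -0.15 ± 0.51 for Aurka and 0.24 ± 1.17 for Tpx2 (SE, n = 2 per group, limma adjusted p = 0.988, 0.977 and 0.984). Plk1, the polo-like kinase, was 2.66-fold higher on KO 1 than on KO 2 and 4.80-fold higher on WT 1 than on WT 2, with a fold change of 0.05 ± 0.86. Cdca8, borealin, a further subunit of the passenger complex, was 3.30-fold and 5.55-fold higher, and Incenp, its scaffold, 1.76-fold and 2.52-fold. Nek2, a centrosome kinase, was 1.77-fold higher on KO 1 and, with a dim WT 2 reading, 2.78-fold higher on WT 1. Aurkb, the kinase of the complex, was dim on every array and was not tested.

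The spindle checkpoint delays anaphase until all chromosomes are attached, and 0 of its 3 tested members passed the adjusted threshold. Bub1b, the checkpoint protein BubR1, read -1.40 on KO 1 and -2.64 on KO 2, against -0.87 on WT 1 and -3.08 on WT 2. Mad2l1, the checkpoint inhibitor Mad2, was 1.99-fold higher on KO 1 than on KO 2 and 1.92-fold higher on WT 1 than on WT 2. Bub1, a checkpoint kinase, ran the other way on its brighter probe, at -1.49 on KO 1 and -0.19 on KO 2, against -1.81 on WT 1 and -1.40 on WT 2. It was the only tested member lower on WT 1 than on WT 2, and the only one at least 2-fold lower on KO 1 than on KO 2, where 6.57% of named genes were. No member was at least 2-fold lower on WT 1 than on WT 2, where 3.07% of named genes were. The Bub1 fold change of 0.76 ± 0.48 (SE, n = 2 per group, limma adjusted p = 0.934) was the highest among the members. Its second probe disagreed: it read -1.57 on KO 1 and -3.14 on KO 2, against -1.11 on WT 1 and -3.55 on WT 2, with a fold change of -0.02 ± 0.93. That probe thus had the order of the other members. Ttk, the checkpoint kinase Mps1, was too dim on all 4 arrays to be tested.

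At the centromere and kinetochore all 8 members were tested and 0 passed the adjusted threshold, with fold changes from -0.44 to 0.39. Cenpe, a kinesin that moves chromosomes to the spindle equator, stood at 1.21 on KO 1 and -0.19 on KO 2, against 2.12 on WT 1 and -0.22 on WT 2. Cenpf, a large kinetochore protein, stood at 1.57 on KO 1 and -0.36 on KO 2, against 2.02 on WT 1 and -0.27 on WT 2. Both were high on the arrays numbered 1 of either genotype, and their groups overlapped (fold changes -0.44 ± 0.87 and -0.27 ± 0.96, SE, n = 2 per group, limma adjusted p = 0.960 and 0.978). All 8 were at least 2-fold higher on WT 1 than on WT 2, also with dim readings at their bound, and 4 of the 8 were so on KO 1 over KO 2 (Cenpe, Cenpf, Cenph and Nuf2). Cenpa, the histone variant that marks the centromere, was 1.28-fold higher on KO 1 than on KO 2 and at least 2.80-fold higher on WT 1 than on WT 2. Ndc80, of the complex that holds microtubules, was 1.04-fold higher on KO 1 than on KO 2 and at least 2.58-fold higher on WT 1 than on WT 2. Its partner Nuf2 was 2.12-fold higher between the KO arrays and 3.08-fold between the WT arrays, and Spc25, of the same complex, 1.94-fold and at least 4.23-fold. The inner centromere proteins Cenph and Cenpk were 2.42-fold and 1.70-fold higher between the KO arrays and 7.63-fold and 3.50-fold between the WT arrays. A second Cenpe probe, well above background on 3 arrays, was lower on both KO arrays than on both WT arrays (-0.62 ± 0.32, adjusted p = 0.934), unlike the brighter one.

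The mitotic kinesins and spindle proteins act on microtubules, as stathmin does, and 0 of the 10 tested passed the adjusted threshold. Kif2c, the kinesin MCAK, which like stathmin destabilises microtubules, had the most negative fold change of all members, -0.87 ± 0.35 (SE, n = 2 per group, limma adjusted p = 0.934). It read -4.15 on KO 1 and -3.37 on KO 2, against -2.71 on WT 1 and -3.06 on WT 2, so the groups did not overlap, and its 95% interval ran from -1.77 to 0.03. Hmmr, a spindle protein and hyaluronan receptor, read -2.89 on KO 1 and -2.97 on KO 2, against -1.94 on WT 1 and -2.66 on WT 2, again with no overlap (-0.63 ± 0.32, adjusted p = 0.934). On these probes both differed less than 2-fold between the arrays of a group. A second Hmmr probe had a fold change of -0.89 ± 0.57 and overlapping groups, and was 3.08-fold higher on WT 1 than on WT 2. Kif20a, a kinesin of the central spindle, stood at 0.45 on KO 1 and -1.44 on KO 2, against 0.52 on WT 1 and -2.19 on WT 2. Kif22, a kinesin that pushes chromosome arms outward, stood at 1.69 on KO 1 and 0.04 on KO 2, against 1.72 on WT 1 and -0.56 on WT 2. These 2 kinesins split by array number and not by genotype (0.34 ± 1.05 and 0.28 ± 0.90, adjusted p = 0.975 and 0.976).

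The other kinesins and spindle proteins followed the arrays to different degrees. Kif11, the kinesin Eg5 that separates the spindle poles, was 1.36-fold higher on KO 1 than on KO 2 and at least 4.95-fold higher on WT 1 than on WT 2. Kif4, a chromosome-bound kinesin, was 2.43-fold and 2.62-fold higher, and Nusap1, which bundles spindle microtubules, 2.92-fold and 5.31-fold. Kif15, Kif18a and Kif20b, further mitotic kinesins, were 1.04-fold, 1.86-fold and 1.38-fold higher between the KO arrays. Between the WT arrays Kif20b was 2.34-fold higher, Kif15 at least 1.77-fold and Kif18a, with a dim WT 2 reading, 2.73-fold. Kif23, a kinesin of the central spindle, failed the filter on its brighter probe, and its second probe was 2.72-fold higher on KO 1 and at least 4.36-fold higher on WT 1. Prc1, which cross-links the central spindle, had no named probe.

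Anaphase begins when the anaphase-promoting complex marks its targets for destruction, and 0 of the 3 tested genes of this step passed. Cdc20, its activator, stood at 2.11 on KO 1 and 0.69 on KO 2, against 2.65 on WT 1 and 0.43 on WT 2. Ube2c, the ubiquitin-conjugating enzyme that works with the complex, stood at 0.69 on KO 1 and -1.35 on KO 2, against 0.72 on WT 1 and -1.24 on WT 2. Cdca3, an F-box-like protein that promotes mitotic entry, read -0.01 on KO 1 and -1.49 on KO 2, against 1.21 on WT 1 and -1.36 on WT 2. Each was high on the arrays numbered 1 in both genotypes, by 2.67-fold to 4.11-fold in KO and 3.91-fold to 5.96-fold in WT. Fold changes were -0.14 ± 0.85, -0.07 ± 0.91 and -0.68 ± 0.95 for Cdc20, Ube2c and Cdca3 (SE, n = 2 per group, limma adjusted p = 0.987, 0.995 and 0.944). A second, dim Cdca3 probe was lower on both KO arrays (-0.88 ± 0.30, limma unadjusted p = 0.0315, adjusted p = 0.934). It was only 1.41-fold higher on KO 1 than on KO 2 and 1.29-fold higher on WT 1 than on WT 2, unlike the brighter probe. Espl1, separase, the protease that frees the sister chromatids, failed the background limit on each array.

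Cytokinesis divides the cell after anaphase, and 0 of its 3 members passed the adjusted threshold. Ect2, which activates the GTPase RhoA at the cell equator, read -1.25 on KO 1 and -2.79 on KO 2, against -0.69 on WT 1 and -2.96 on WT 2. Racgap1, its partner at the central spindle, read -2.75 on KO 1 and -3.98 on KO 2, against -2.96 on WT 1 and -4.98 on WT 2. Anln, anillin, a scaffold of the contractile ring, read -2.90 on KO 1 and -2.70 on KO 2, against -2.50 on WT 1 and -3.02 on WT 2. Anillin was thus nearly level while Ect2 and Racgap1 were higher on KO 1 and WT 1, and its second probe gave the same picture, at -3.10 and -2.69 on KO 1 and KO 2 against -2.81 and -3.07 on WT 1 and WT 2. Fold changes were -0.20 ± 0.88 for Ect2, 0.60 ± 0.77 for Racgap1 and -0.04 ± 0.29 for Anln (SE, n = 2 per group, limma adjusted p = 0.982, 0.940 and 0.989).

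The marker and the chromosome gene went with the majority. Mki67, the antigen Ki-67, a protein of mitotic chromosome surfaces used to count dividing cells, stood at 2.24 on KO 1 and 0.61 on KO 2, against 2.80 on WT 1 and 0.49 on WT 2. Top2a, the topoisomerase that untangles sister chromatids, read -1.84 on KO 1 and -3.35 on KO 2, against -1.16 on WT 1 and -3.77 on WT 2. Ki-67 RNA was thus 3.11-fold higher on KO 1 than on KO 2 and 4.95-fold higher on WT 1 than on WT 2, with a fold change between genotypes of -0.22 ± 0.90 (SE, n = 2 per group, limma adjusted p = 0.981). The second Mki67 probe was 2.04-fold and 5.85-fold higher on KO 1 and WT 1.

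Across roles the median differences in log2 between the arrays of KO and WT, with dim readings as they stood, were 1.81 and 2.02 for entry into mitosis, 0.99 and 0.94 for the checkpoint and 0.68 and 1.42 for the kinesins and spindle proteins. They were 1.40 and 2.26 for the kinases and passenger complex, 1.02 and 2.32 for the kinetochore, 1.47 and 2.22 for anaphase and 1.23 and 2.02 for cytokinesis. Of 23 further probes of the members, 10 were tested. By any difference above 0, 8 of these were higher on both KO 1 and WT 1 than on their group's other array. So were 23.9% of named genes and 39 of the 43 members on their brightest probes. Of the 10, only those of Mki67, Bub1 and Kif23 were at least 2-fold higher in both groups. On their brightest probes 24 of the 43 members were, and 0.894% of named genes. Among tested members with a promoter window, the 23 with a CHR within 50 bases of the start had median differences of 1.24 and 2.21 in KO and WT, and 13 of them differed at least 2-fold in both. The 13 without such a match had medians of 1.08 and 1.89, and 7 of them differed at least 2-fold in both.

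Other cell cycle genes, listed by function, were mostly high on the same arrays, with smaller medians. Of 56 other mitosis genes 37 were tested and 0 passed the adjusted threshold. Their median difference was 0.50 in log2 between KO 1 and KO 2 and 1.40 between WT 1 and WT 2, and 9 and 24 of them were at least 2-fold higher. Smc4, a condensin subunit that compacts mitotic chromosomes, stood at -0.22 on KO 1 and 0.04 on KO 2, against 1.40 on WT 1 and 0.01 on WT 2, so WT 1 alone was high. Cenpu, a centromere protein, read -3.07 and -2.89 on KO 1 and KO 2 against -2.65 and -1.92 on WT 1 and WT 2. Ncapd2, another condensin subunit, was 0.32 higher in log2 on KO 1 than on KO 2 and 1.32 higher on WT 1 than on WT 2. Cks1b, a small partner of the cell cycle kinases, differed by 0.46 and -0.03.

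Of 46 genes of DNA replication and S phase 44 were tested, and 0 passed. The median differences were 0.53 between the KO arrays and 1.1 between the WT arrays, with 15 and 26 at least 2-fold higher on KO 1 and WT 1, and all 15 were among the 26. Mcm6, a subunit of the replicative helicase, stood at 3.93 on KO 1 and 2.67 on KO 2, against 4.25 on WT 1 and 2.11 on WT 2. Tk1, thymidine kinase, stood at 1.57 on KO 1 and 0.32 on KO 2, against 1.08 on WT 1 and -0.97 on WT 2. Both had the high arrays of the mitosis genes. Mcm2, of the same helicase, differed by 1.90 and 1.40 in log2 between the arrays of KO and WT, and Pcna, the sliding clamp of the polymerases, by 0.50 and 0.49.

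The D cyclins and the inhibitors that govern the start of the cycle, and the subunits of the complex that represses the mitosis genes, showed smaller median differences between the arrays. Of 15 tested D cyclins and CDK inhibitors none was at least 2-fold higher on WT 1 than on WT 2, and 1 was so on KO 1 over KO 2. That one was Cdkn2d, the inhibitor p19, at -1.75 on KO 1 and -5.03 on KO 2, against -1.42 on WT 1 and -1.35 on WT 2, with KO 2 below the background limit. Cdkn2c, the inhibitor p18, stood at 4.98 and 4.70 on the KO arrays against 4.16 and 4.81 on the WT arrays, and Ccng1, cyclin G1, at 3.86 and 4.27 against 4.35 and 3.67. The 12 subunits of MuvB and DREAM had median differences of 0.19 and 0.07. Rbl1, the pocket protein p107, stood at 0.84 and 0.20 on the KO arrays against -0.05 and -0.82 on the WT arrays, with no overlap and a fold change of 0.96 ± 0.39 (SE, n = 2 per group, limma adjusted p = 0.934). E2f4, the E2F of that repressor, read -4.55 and -4.12 against -3.91 and -3.69 (-0.53 ± 0.28, adjusted p = 0.934). Rbbp4 and Lin37, subunits of the MuvB core, had fold changes of 0.08 ± 0.28 and 0.15 ± 0.25 on their brightest probes. Further Rbbp4 probes disagreed, at -0.30 ± 0.29 and, on the dimmest, 3.21 ± 0.39 (limma unadjusted p = 0.000355, adjusted p = 0.934). That dimmest probe was well above background on only 2 arrays and read -2.52 and -2.13 on KO 1 and KO 2 against -5.07 and -6.01 on WT 1 and WT 2. Of the other stathmin family genes, Stmn3 had a fold change of 0.56 ± 0.25 and Stmn4 of -0.52 ± 0.28 (adjusted p = 0.934 for both), and neither differed 2-fold between the arrays of a group.

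**Figure D4:**
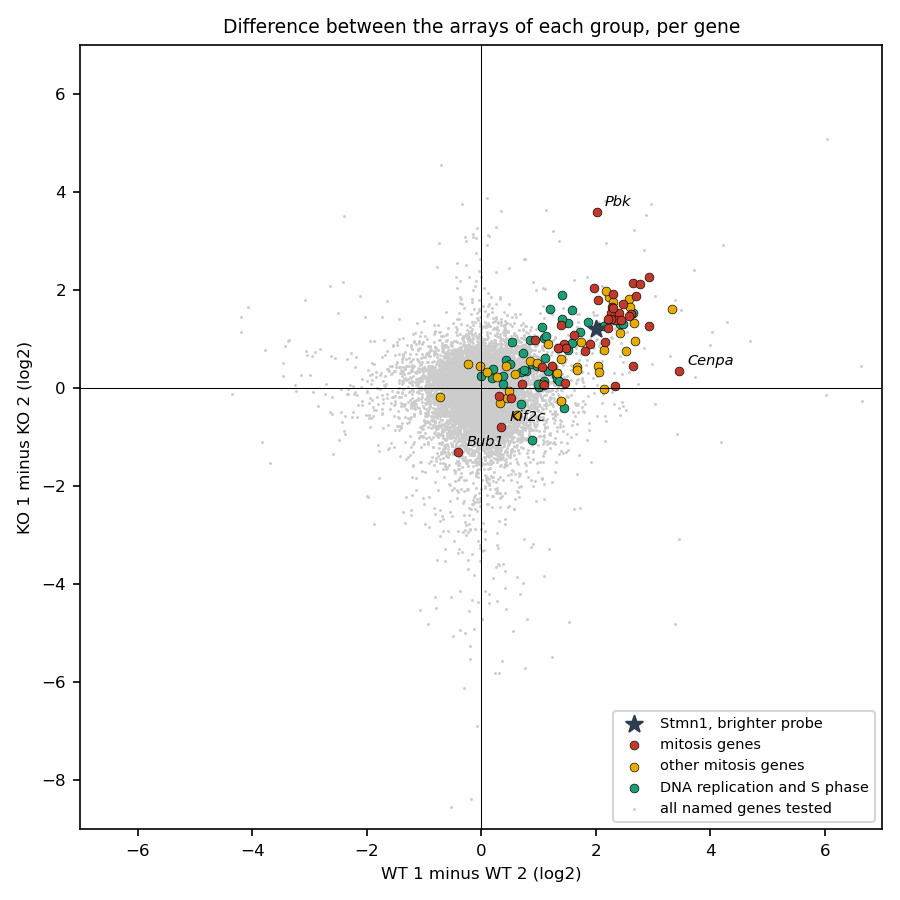
Difference in log2 level between KO 1 and KO 2 (vertical axis) against the difference between WT 1 and WT 2 (horizontal axis) for the 13205 named genes tested (grey), the 43 mitosis genes (red), 37 other mitosis genes (yellow), 44 genes of DNA replication and S phase (green) and the brighter Stmn1 probe (star). The mitosis genes fill the upper right, where both arrays numbered 1 are higher, except Bub1, Kif2c, Cdc25c and Anln, while most grey points surround 0.

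At the level of all genes, 118 were at least 2-fold higher on both KO 1 and WT 1 than on their group's other array. Of these 24 were the mitosis genes named above, 15 were genes of DNA replication and S phase, 9 were other mitosis genes, 1 was Stmn1 and 69 were on none of the cell cycle lists. When genes were ranked by the smaller of their differences, 16 of the first 50 were members and 25 were on none of the cell cycle lists. Members made up 43 of the 13205 named genes tested. The ranking uses the differences already given, and its counts describe these 4 arrays.

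The cell types of the gland were followed with marker lists, since a bulk level moves with the makeup of the sample. Luminal epithelial markers, of which 11 of 12 were well above background on all arrays (Cdh1 was not on WT 2), averaged 1.27 on KO 1 and 0.59 on KO 2, against 1.48 on WT 1 and 1.34 on WT 2. Their summed signal over the 75th percentile was 135 and 87.8 on KO 1 and KO 2, against 127 and 153 on WT 1 and WT 2. Basal epithelial markers, 8 of 8 well above background, averaged 1.90 on KO 1 and 1.30 on KO 2, against 2.0 on WT 1 and 1.63 on WT 2, with sums of 81.9 and 62.5 against 96.5 and 75.8. Both epithelial lists were therefore lowest on KO 2, while the mean of the mitosis genes was lowest on WT 2. The averages of both lists were, like that of the mitosis genes, higher on KO 1 than on KO 2 and on WT 1 than on WT 2. The luminal sum was higher on WT 2 than on WT 1. B cell markers averaged -0.04 on KO 2 and -4.61 on KO 1, against -3.79 on both WT arrays, and their sum was 25.9 on KO 2 and 0.658 on KO 1, against 0.904 and 0.764 on WT 1 and WT 2. T cell markers averaged -0.26 on KO 2 and -4.06 on KO 1, against -3.79 and -4.17 on WT 1 and WT 2. On KO 2, 6 of 8 B cell and 7 of 8 T cell markers were well above background, and only 2 of each list were so on all 4 arrays. The B cell markers Ms4a1, Cd79a, Pax5, Spib, Fcer2a and Blk and the T cell markers Cd3e, Cd3g, Cd8a, Cd4, Bcl11b and Trat1 were below that limit on some array. Adipocyte markers averaged 5.70 and 5.69 on the KO arrays against 5.32 and 5.89 on the WT arrays, fibroblast markers 4.24 and 4.08 against 4.54 and 4.67, skeletal muscle markers 5.42 and 5.55 against 6.08 and 5.92, macrophage markers 1.01 and 1.13 against 1.18 and 1.93, and endothelial markers 0.88 and 0.76 against 1.15 and 1.07. The part of any of these cell types in the levels of the mitosis genes was not tested.

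**Figure D5:**
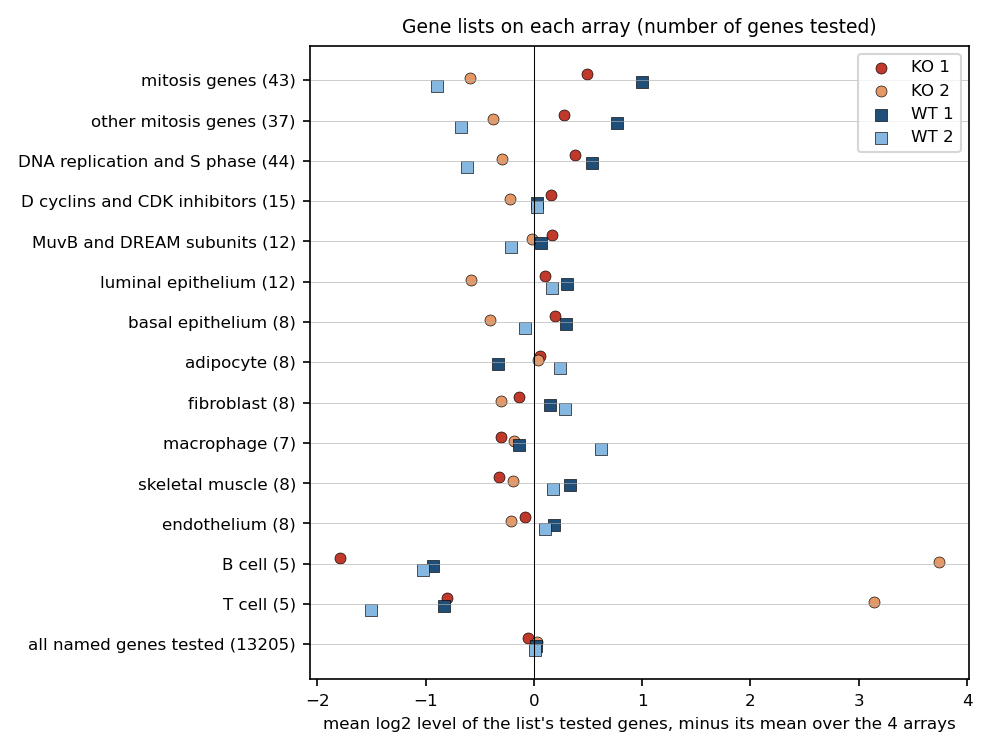
Mean log2 level of each gene list on KO 1, KO 2 (circles), WT 1 and WT 2 (squares), minus the list's mean over the 4 arrays, over its tested genes (number in brackets). The mitosis genes lie at 0.49 on KO 1 and -0.59 on KO 2, against 1.0 on WT 1 and -0.90 on WT 2, while the B cell and T cell lists stand out on KO 2 alone.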

How the data were processed

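Agilent one-colour arrays were hybridised with Cy3-labelled total RNA from mammary glands, 2 KO and 2 WT samples, per the labels. One label field names EOC cells and was not used. The authors deposited scanner spot intensities. The processed signal, a background-subtracted intensity, was made by Feature Extraction. The file headers give its version as 11.5.1.1, and per the submitters' processing notes it was 10.7.3.1. The authors also deposited a log2 table ascribed to GeneSpring in the series' design text. It matched quantile-normalized log2 signals centred on each probe's median (r at least 0.999998, largest median absolute difference 7.05e-05), which settled scale, centring and direction. Its column medians were 0.00604 on KO 1, -0.00977 on KO 2, -0.0178 on WT 1 and 0.0184 on WT 2.

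Levels were log2 processed signal minus the array's 75th percentile. Control spots were dropped, as were 35 to 73 outlier spots on an array, and spots of 1 probe were averaged. Accessions were matched to RefSeq genes (GRCm38.p6), which gave 27816 of 41174 probes a name (18952 genes), with 13358 unnamed. Each gene was read from its brightest probe over the 4 arrays. Probes well above background on both KO or both WT arrays were tested (24186). The test of KO against WT was limma's (version 3.58.1, R 4.3.3), by lmFit and eBayes without covariates, two-sided. P-values were adjusted by Benjamini-Hochberg across the tested probes, with 0.05 as the limit. The script was tested on simulated data. Tables and motif searches used Python 3.11.15 with pandas 2.3.3. The labels do not say whether samples came from separate animals, so p-values measure only the spread between these samples, and the number of arrays limits precision.

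Per-array values are given for the 2 members of highest mean level and the member of largest absolute fold change in each role, and for members without overlap and an absolute log2 fold change of at least 0.5. Other cell cycle lists give 2 genes of each kind. Further values (such as those of Cdk1, Cdc25c and second probes) were chosen after they were seen. The members and lists were chosen with earlier results of these data known. Alternatives covered scaling, background correction, the filter, the choice of probe, the deposited table, the variance model, a replicate block, the threshold and leaving out each array. No other samples were used.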

Additional observations from a re-analysis of the deposited data

How the results depend on the processing

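Under 15 alternatives, 2 of them chosen after seeing the data (the second background correction and the brightest tested probe), no mitosis gene passed an adjusted p of 0.05 in limma, nor of 0.1 with the values as reported. Of 596 single-gene values under alternatives that kept all 4 arrays, none was called or turned round. A fold change smaller than its standard error counted as having no direction. With the main settings this held for 39 of the tested mitosis genes, so for these the rule could not record a turn. The count therefore does not show that signs were stable. In the fits behind the 244 values that left 1 array out, the number of members above 0 changed widely, as given below. With all arrays kept, between 0 and 1 members had an unadjusted p under 0.05 in limma, where 418 to 652 named genes did.

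The median fold change depended on single arrays. It ran from -1.06 to 0.88 when 1 array was left out: -0.65 without KO 1, 0.56 without KO 2, 0.88 without WT 1 and -1.06 without WT 2. The members above 0 were 3, 35, 40 and 1 of 43 in these fits. Members higher in KO than WT with no overlap numbered 1 to 32 (32 without WT 1, where 31.1% of named genes did so) and lower ones 3 to 39 (39 without WT 2, where 33.6% did, and 10 without KO 1, where 32.4% did). Here the remaining array of a group is assumed to vary like the other group. Scaling on the median shifted all genes by 0.17 and gave 3 genes past the threshold, all lower in KO. It left 1 member above and 1 below WT without overlap, where 20% and 7.73% of named genes were so. The share of members above 0 rose to 62.8% from 34.9%. Quantile normalization and the authors' table each gave 1 member above and 1 below, where 20.2% of named genes were above and 16.7% or 16.8% below. Normexp on the median spot signals, with an offset of 50, lowered the share above 0 to 20.9% and the median array differences to 0.36 in KO and 0.86 in WT. It also lowered the members at least 2-fold higher to 15 and 19. The cause was not tested. Normexp on mean spot signals was not run.

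With the replicate number as a block the median fold change was -0.11 and 0 members passed. The numbers were not taken as pairing samples, because the labels do not say that a number links any. Over tested probes the KO 1 minus KO 2 and WT 1 minus WT 2 differences correlated at 0.065. A value over all probes cannot show whether some genes share a link, and this was not tested. Signal over background limits what can be said of the 11 members that were not well above it on WT 2.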

Other observations

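Among the 69 genes at least 2-fold higher on both KO 1 and WT 1 that were on none of the cell cycle lists were several genes of slow skeletal muscle fibres, picked out after their values were seen. Myh7, the slow myosin heavy chain, stood at 5.38 on KO 1 and 1.84 on KO 2, against 6.08 on WT 1 and 3.21 on WT 2. Tnnt1, slow troponin T, stood at 3.44 on KO 1 and 0.62 on KO 2, against 4.61 on WT 1 and 1.77 on WT 2. Tnni1, Tnnc1 and Myl2, further proteins of slow fibres and heart, were higher by 3.77, 3.24 and 3.82 in log2 on KO 1 than on KO 2 and by 2.96, 2.67 and 2.17 on WT 1 than on WT 2. The skeletal muscle list, made mostly of fast-fibre genes, did not share this order, averaging 5.42 and 5.55 on KO 1 and KO 2 against 6.08 and 5.92 on WT 1 and WT 2.

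Calca, the gene of calcitonin and the peptide CGRP, ranked first of the 118 genes by the smaller of its differences. It stood at 5.60 on KO 1 and 0.52 on KO 2, against 6.53 on WT 1 and 0.49 on WT 2. Rspo1, a secreted enhancer of Wnt signalling, stood at 2.04 on KO 1 and -0.89 on KO 2, against 3.90 on WT 1 and -0.32 on WT 2. Id4, a regulator of mammary basal cells, stood at 1.11 on KO 1 and -0.99 on KO 2, against 1.11 on WT 1 and -1.0 on WT 2. Gjb2, a connexin, was higher by 1.79 in log2 on KO 1 than on KO 2 and by 3.39 on WT 1 than on WT 2.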
